A study of Mus musculus with 6 samples.

Results

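The 6 genes described here, Bdh1, Acat1, Oxct1, Slc16a1, Slc16a6 and Slc16a7, encode enzymes of ketone body synthesis and use and carriers that can move ketone bodies across the plasma membrane. They were taken by symbol from a table of 45777 genes, 16197 of which were tested, and all 6 passed the filter on low counts. RNA came from the livers of 10-week-old C57BL/6 mice. The Pak4_KO group (n = 3 libraries) carried floxed Pak4 on both alleles together with Alb-Cre, in which the albumin promoter drives Cre recombinase. The labels call this genotype a hepatocyte-specific knockout. The WT group (n = 3 libraries) carried the same floxed alleles of Pak4, the gene of a p21-activated kinase, without Alb-Cre, so the loss of Pak4 and the presence of Cre cannot be told apart. The sources used here give neither sex, nor feeding state, nor the animal behind each library, so the p-values rest on library-to-library spread, which may be technical.

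Ketone bodies are made in hepatocyte mitochondria from the acetyl-CoA that fatty acid oxidation yields, mainly during fasting. Acetoacetate is formed first and is partly reduced to β-hydroxybutyrate, and both leave the cell for heart, muscle and brain. The liver exports ketone bodies but hardly burns them, because hepatocytes have little of the transferase that activates acetoacetate. Transport across the plasma membrane is carried out by monocarboxylate transporters, proton-coupled carriers that also take lactate and pyruvate.

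Pak4 (NCBI gene 70584, chromosome 7, 28558819 to 28598184, GRCm38) had 1.37, 2.24 and 1.90 CPM in Pak4_KO replicates 1 to 3, against 5.93, 7.15 and 6.44 CPM in WT replicates 1 to 3, where CPM is reads per 1e6 TMM-scaled library reads. It fell in Pak4_KO without overlap, by 1.82 on the log2 scale (adjusted p = 0.0169 by edgeR). Library totals ran from 42632491 to 48044181 reads in Pak4_KO and from 39603272 to 52521400 reads in WT. On the second principal component of log2 CPM, Pak4_KO replicate 1 (42.6) and WT replicate 3 (-46.8) stood apart. Without both, the 6 genes below had 0 calls, with a lowest edgeR adjusted p of 0.153, that of Slc16a6 at a log2 fold change of -0.85.

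None of the 6 genes passed the test between Pak4_KO and WT liver across all genes. The edgeR quasi-likelihood test called 0 of 6 at a Benjamini-Hochberg adjusted p under 0.05, against 0.469% of all tested genes, and 0 of 6 had an unadjusted p under 0.05, against 8.21% of all tested genes. The DESeq2 Wald test and limma-voom also called 0 of 6, against 2.06% of all genes tested by DESeq2 and 0.42% by limma-voom. Each had 1 of 6 at an unadjusted p under 0.05, against 8.47% of all genes by DESeq2 and 8.33% by limma-voom. The 6 log2 fold changes ran from -0.43 to 0.57, 4 positive and 2 negative, with a median of 0.15, against a median of 0.00 over all tested genes. Acat1 was the only one of the 6 whose libraries did not overlap between the groups, with higher values in Pak4_KO. Of all tested genes, 13.4% did not overlap, 7.35% with higher and 6.06% with lower values in Pak4_KO.

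**Figure D1:**
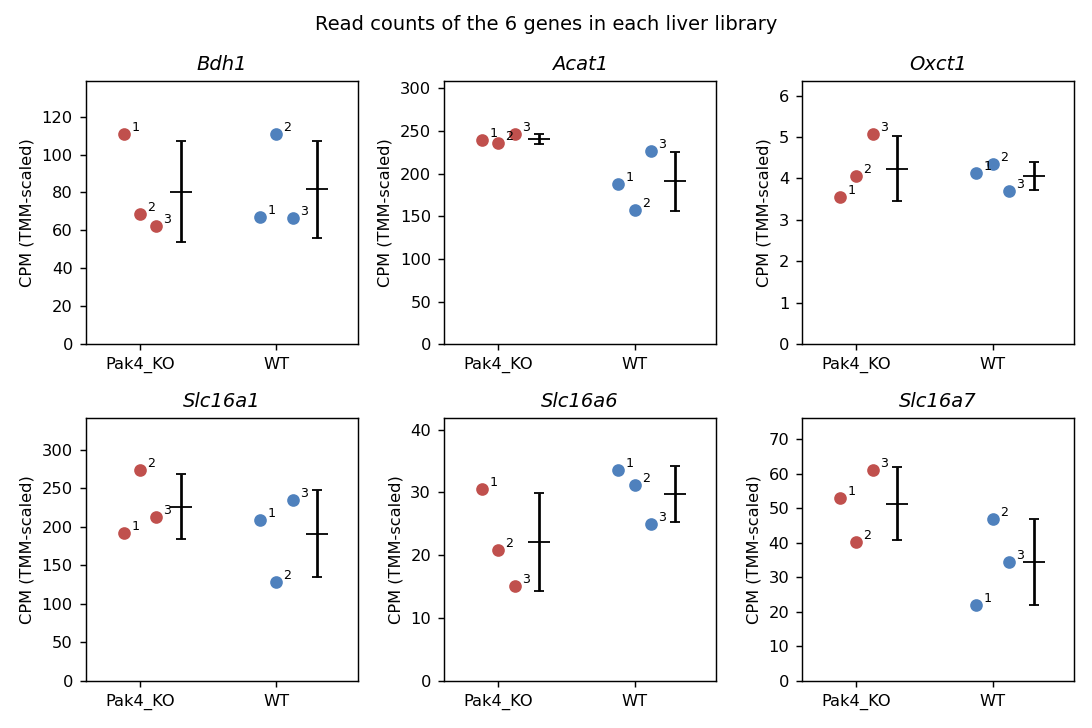
TMM-scaled CPM (reads per 1e6 effective library reads, vertical axes from 0) of the 6 genes in each library, with replicate numbers beside the points and the mean ± SD (n = 3) to the right of each group. The Acat1 points of Pak4_KO, at 236 to 247 CPM, all lie above the WT points, at 157 to 227 CPM, and the groups overlap for the other 5 genes.

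Set per length, Acat1 and Slc16a1 were the most abundant of the 6 transcripts and Oxct1 the least. Deposited TPM gives abundance per length and is not always the count over a fixed length of the gene. In deposited TPM, Acat1 averaged 109 over the 6 libraries (75.0 to 135), Slc16a1 79.6 (46.4 to 102) and Bdh1 44.1 (34.7 to 61.8). Slc16a6 averaged 10.1 TPM (6.52 to 13.1), Slc16a7 6.79 TPM (3.44 to 10.4) and Oxct1 2.02 TPM (1.71 to 2.68). Acat1 ranked first and Oxct1 last in each of the 6 libraries. The ranges of Acat1 and Slc16a1, of Slc16a1 and Bdh1, and of Slc16a6 and Slc16a7 overlapped, whereas the range of Bdh1 lay above that of Slc16a6 and the range of Slc16a7 above that of Oxct1. Bdh1 ranked above Slc16a1 in WT replicate 2, and Slc16a7 above Slc16a6 in Pak4_KO replicate 3.

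**Figure D2:**
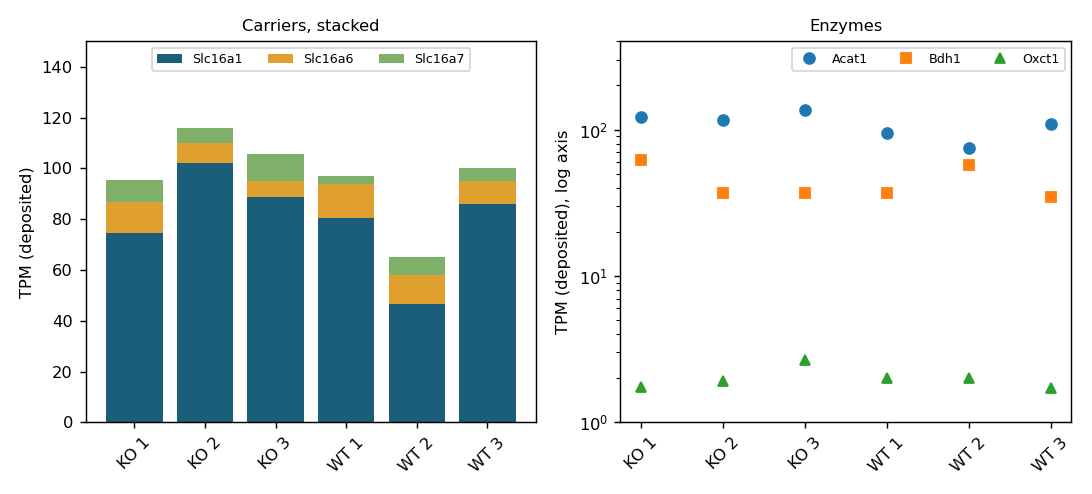
Deposited TPM in each library, with the 3 carriers stacked (left, linear axis from 0) and the 3 enzymes as points (right, log axis). Slc16a1 makes up most of each bar, from 71.3% in WT replicate 2 to 88.0% in Pak4_KO replicate 2, and Oxct1 stays between 1.71 and 2.68 TPM.

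Promoter windows of 250 bases before and 50 after a gene start were held for 3 of the 6 genes in the RefSeq table (GRCm38.p6), Slc16a1, Bdh1 and Oxct1, and Acat1, Slc16a6 and Slc16a7 are not shown. These windows are shown because the RefSeq table held no others for the 6 genes. They belong to an abundant carrier, the dehydrogenase of the liver pathway and the enzyme that the liver hardly makes. All 3 genes lie on the plus strand. Capitals mark matches, on either strand, to the E-box CACGTG, the GC box GGGCGG, the TATA box TATAAA, the CCAAT box CCAAT, the nuclear receptor hexamer AGGTCA, or its direct repeat with 1 base between the copies (DR1), which contains the hexamer and is the kind of element that PPARα binds with RXR.
Slc16a1 (chr3:104638414-104638713): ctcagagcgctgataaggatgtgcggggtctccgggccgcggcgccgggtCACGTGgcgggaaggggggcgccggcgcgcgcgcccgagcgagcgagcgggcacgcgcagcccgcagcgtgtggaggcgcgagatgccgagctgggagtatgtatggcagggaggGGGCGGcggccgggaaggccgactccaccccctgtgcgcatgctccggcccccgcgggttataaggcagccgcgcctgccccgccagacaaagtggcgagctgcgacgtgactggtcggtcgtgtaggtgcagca
Bdh1, first start (chr16:31422047-31422346): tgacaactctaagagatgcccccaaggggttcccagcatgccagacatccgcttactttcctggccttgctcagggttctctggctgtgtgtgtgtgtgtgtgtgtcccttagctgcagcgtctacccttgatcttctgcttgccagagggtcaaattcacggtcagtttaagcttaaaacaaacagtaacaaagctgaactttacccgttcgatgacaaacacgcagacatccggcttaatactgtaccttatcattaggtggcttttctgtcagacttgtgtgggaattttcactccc
Bdh1, second start (chr16:31428503-31428802): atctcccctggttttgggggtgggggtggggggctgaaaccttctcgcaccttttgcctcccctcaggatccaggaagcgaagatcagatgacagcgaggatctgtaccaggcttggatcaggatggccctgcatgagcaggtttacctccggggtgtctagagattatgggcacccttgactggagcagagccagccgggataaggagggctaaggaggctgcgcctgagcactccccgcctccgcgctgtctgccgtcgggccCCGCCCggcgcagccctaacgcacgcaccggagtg
Oxct1 (chr15:4026178-4026477): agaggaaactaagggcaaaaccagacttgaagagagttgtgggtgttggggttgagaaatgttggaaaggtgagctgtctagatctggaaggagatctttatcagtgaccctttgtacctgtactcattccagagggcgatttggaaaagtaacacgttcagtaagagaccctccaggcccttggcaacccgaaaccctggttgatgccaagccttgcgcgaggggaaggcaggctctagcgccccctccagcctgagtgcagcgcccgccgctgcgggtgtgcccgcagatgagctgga

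The Slc16a1 window differed from the others in base composition, with 73.7% G or C and 42 CG dinucleotides, against medians of 52.7% and 7 over 32851 windows. The second Bdh1 start had 63.7% and 17, the Oxct1 window 55.3% and 11, and the first Bdh1 start 48.3% and 7. Slc16a1 held an E-box 200 bases before its start, a match found in 7.15% of all windows, and a GC box 85 bases before it, found in 35.7%. The second Bdh1 start held a GC box on the minus strand, 15 bases after the start. The hexamer AGGTCA (16.3% of all windows), its direct repeat (0.0396%), TATAAA (13.6%) and CCAAT (37.4%) had no match in these 4 windows, which says only that these letters are not there.

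Acat1, which encodes the mitochondrial acetoacetyl-CoA thiolase, joins acetyl-CoA units at the entry to ketone synthesis and splits acetoacetyl-CoA in tissues that burn ketones. Acat1 (NCBI gene 110446, chromosome 9, 53580522 to 53610350, GRCm38) had 239, 236 and 247 CPM in Pak4_KO replicates 1 to 3, against 188, 157 and 227 CPM in WT replicates 1 to 3. All 3 Pak4_KO libraries lay above all 3 WT libraries, and the WT libraries were the more widely spread. Acat1 averaged 241 ± 5.65 CPM in Pak4_KO and 191 ± 35.0 CPM in WT (SD, n = 3 each). The log2 fold change was 0.33 (SE 0.15, edgeR adjusted p = 0.641), 1.26-fold, with a 95% interval from 0.988-fold to 1.61-fold. It was 0.21 without WT replicate 2, with an edgeR adjusted p of 0.841, and 0.48 without WT replicate 3, with an edgeR adjusted p of 0.379.

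Acat2, which encodes a cytosolic thiolase that feeds sterol synthesis, and its close relative Acat3 had log2 fold changes of the opposite sign. Acat2 stood at 63.3 ± 9.02 CPM in Pak4_KO and 77.6 ± 2.71 CPM in WT (SD, n = 3 each), -0.29 on the log2 scale for Pak4_KO over WT (SE 0.14, adjusted p = 0.641 by edgeR). Acat3 stood at 181 ± 24.9 CPM in Pak4_KO and 229.8 ± 25.4 CPM in WT (SD, n = 3 each), -0.35 on the log2 scale for Pak4_KO over WT (SE 0.15, adjusted p = 0.610 by edgeR). The groups did not overlap for either gene, and neither passed the test. The Acat2 and Acat3 transcripts are 97.7% identical over their best alignment, so the counting could split reads between them, whereas the Acat1 transcript matched no other gene at 85% identity over 0.2 of its length.

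Bdh1 encodes the mitochondrial D-β-hydroxybutyrate dehydrogenase, which interconverts acetoacetate and β-hydroxybutyrate. Bdh1 (NCBI gene 71911, chromosome 16, 31422297 to 31458901, GRCm38) had 111, 68.5 and 62.1 CPM in Pak4_KO replicates 1 to 3, against 67.2, 111 and 66.5 CPM in WT replicates 1 to 3. Each group had 1 high library, Pak4_KO replicate 1 and WT replicate 2, and the other 4 libraries lay between 62.1 and 68.5 CPM. The group means were 80.5 ± 26.5 CPM in Pak4_KO and 81.6 ± 25.4 CPM in WT (SD, n = 3 each). The log2 fold change was -0.02 (SE 0.27, edgeR adjusted p = 0.998), with a 95% interval from 0.641-fold to 1.52-fold, and its sign turned with library-size scaling, with TPM, and without Pak4_KO replicate 2, Pak4_KO replicate 3 or WT replicate 2. The same 2 libraries had the highest scores on the second principal component, 42.6 and 27.6, while the other 4 scored from -46.8 to 3.95. Bdh2, which encodes a cytosolic dehydrogenase of the same type, stood at 5.40 ± 0.882 CPM in Pak4_KO and 5.72 ± 1.32 CPM in WT (SD, n = 3 each), -0.09 on the log2 scale for Pak4_KO over WT (SE 0.23, adjusted p = 0.970 by edgeR).

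Oxct1 encodes succinyl-CoA:3-oxoacid CoA transferase, the enzyme that activates acetoacetate for burning in extrahepatic tissues. Oxct1 (NCBI gene 67041, chromosome 15, 4026428 to 4155344, GRCm38) had 3.54, 4.06 and 5.08 CPM in Pak4_KO replicates 1 to 3, against 4.14, 4.36 and 3.70 CPM in WT replicates 1 to 3. Both groups were low in every library and overlapped, and the highest and the lowest values were both in Pak4_KO. These values rest on 150 to 254 reads per library in Pak4_KO and 164 to 207 in WT, the fewest of the 6 genes. The log2 fold change was 0.06 (SE 0.21, edgeR adjusted p = 0.983), with a 95% interval from 0.748-fold to 1.45-fold. In whole liver, fewer cells of a type and less RNA per cell cannot be told apart, and reads from hepatocytes and other cells are not separated.

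The ratio of Bdh1 to Oxct1, a liver synthesis enzyme over the enzyme of ketone use, was 35.3, 19.0 and 13.8 in deposited TPM in Pak4_KO replicates 1 to 3, against 18.3, 28.7 and 20.3 in WT replicates 1 to 3. Bdh1 thus exceeded Oxct1 per length by more than 10-fold in each library, and the groups overlapped. The mean log2 ratio was 4.39 ± 0.688 in Pak4_KO and 4.46 ± 0.340 in WT (SD, n = 3 each), a difference of -0.07 (exact two-sided permutation test, p = 0.9, where 3 against 3 libraries cannot go below 0.1). Without Pak4_KO replicate 3, the difference was 0.23, and without WT replicate 2 it was 0.12.

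Slc16a1 encodes MCT1, the widely expressed monocarboxylate transporter. Slc16a1 (NCBI gene 20501, chromosome 3, 104638664 to 104658462, GRCm38) had 192, 273 and 213 CPM in Pak4_KO replicates 1 to 3, against 209, 128 and 235 CPM in WT replicates 1 to 3. The groups overlapped, and WT replicate 2 stood below the other 5 libraries. The log2 fold change was 0.24 (SE 0.24, edgeR adjusted p = 0.880), with a 95% interval from 0.814-fold to 1.72-fold, and it was 0.02 without WT replicate 2. Bsg, which encodes the chaperone basigin that brings MCT1 to the membrane, stood at 165 ± 20.5 CPM in Pak4_KO and 182 ± 19.1 CPM in WT (SD, n = 3 each), -0.14 on the log2 scale for Pak4_KO over WT (SE 0.14, adjusted p = 0.886 by edgeR).

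Slc16a7 encodes MCT2, a carrier of higher affinity than MCT1. Slc16a7 (NCBI gene 20503, chromosome 10, 125219270 to 125389586, GRCm38) had 52.9, 40.2 and 61.0 CPM in Pak4_KO replicates 1 to 3, against 22.1, 47.0 and 34.5 CPM in WT replicates 1 to 3. Pak4_KO replicates 1 and 3 lay above all WT libraries, Pak4_KO replicate 2 lay below WT replicate 2, and WT replicate 1 was the lowest. The log2 fold change of 0.57 was the most positive of the 6 (SE 0.27, edgeR adjusted p = 0.648), 1.49-fold with a 95% interval from 0.970-fold to 2.28-fold. Its unadjusted p was 0.0650 by edgeR and 0.0438 by the DESeq2 Wald test, whose adjusted p was 0.554.

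Slc16a6 encodes MCT7, which zebrafish liver needs to export β-hydroxybutyrate. Slc16a6 (NCBI gene 104681, chromosome 11, 109450855 to 109473598, GRCm38) had 30.5, 20.8 and 15.1 CPM in Pak4_KO replicates 1 to 3, against 33.5, 31.2 and 24.9 CPM in WT replicates 1 to 3. Pak4_KO replicates 2 and 3 lay below all WT libraries, and Pak4_KO replicate 1 lay within the WT range. The log2 fold change of -0.43 was the most negative of the 6 (SE 0.25, edgeR adjusted p = 0.729), 1.35-fold lower, with a 95% interval from 0.499-fold to 1.10-fold. Without Pak4_KO replicate 1 the log2 fold change was -0.74, with an edgeR adjusted p of 0.302. In GENCODE M21, Slc16a6 overlaps Amz2 and Arsg on the opposite strand. In the RefSeq positions, Amz2 runs from 109425946 to 109438148 and does not reach Slc16a6. The gene models and the strand setting of the counting are not given, and whether reads were shared was not tested. Amz2 differed by 0.06 on the log2 scale for Pak4_KO over WT (SE 0.17, adjusted p = 0.976 by edgeR).

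Slc16a1 was the most abundant of the 3 carrier transcripts in every library. Its share of the summed TPM of the 3 carriers was 78.3%, 88.0% and 84.0% in Pak4_KO replicates 1 to 3, against 83.0%, 71.3% and 85.6% in WT replicates 1 to 3. The mean share was 83.4% ± 4.89 in Pak4_KO and 80.0% ± 7.58 in WT (SD, n = 3 each), a difference of 3.43 percentage points (exact two-sided permutation test, p = 0.6, smallest possible p = 0.1), and of -0.88 without WT replicate 2. Slc16a6 held 8.56% ± 3.61 in Pak4_KO and 13.5% ± 4.28 in WT, and Slc16a7 held 8.03% ± 2.46 in Pak4_KO and 6.52% ± 3.84 in WT (SD, n = 3 each). The 3 carriers together came to 95.5, 116 and 106 TPM in Pak4_KO replicates 1 to 3, against 97.2, 65.0 and 100.2 TPM in WT replicates 1 to 3, overlapping groups with 1 low WT library.

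The 6 genes differed in how much they varied between libraries of a group. The pooled within-group SD of log2 CPM was 0.19 for Acat1 and 0.20 for Oxct1, below the median of 0.27 over all tested genes. It was 0.38 for Slc16a1, 0.39 for Slc16a6, 0.43 for Bdh1 and 0.44 for Slc16a7, above that median. WT replicate 2 was the lowest of the 6 libraries for Acat1 and Slc16a1 and close to the highest for Bdh1, while WT replicate 1 was the highest for Slc16a6 and the lowest for Slc16a7.

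**Figure D3:**
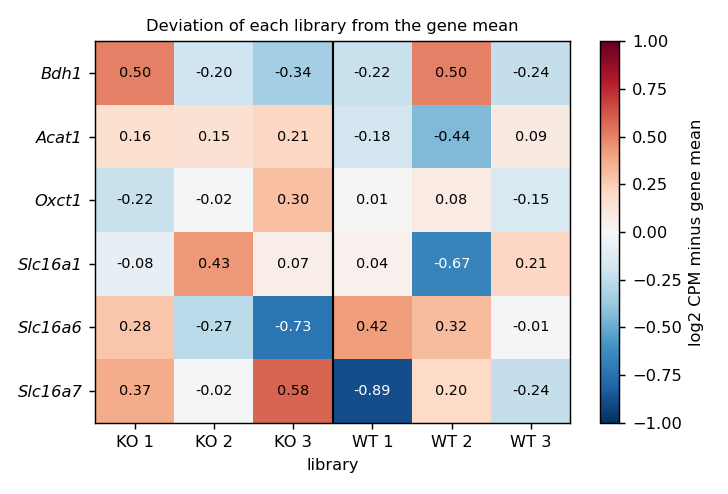
Deviation of each library's log2 CPM from the mean of the gene over the 6 libraries, with the colour running from -1 (blue) to 1 (red) and the vertical line between Pak4_KO (KO) and WT. The extremes of Bdh1 are 0.50 in Pak4_KO replicate 1 and WT replicate 2, and the lowest value of Slc16a7 is -0.89 in WT replicate 1.

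Among 11380 named genes with a mean of at least 1 CPM, those closest to each profile were found by the root mean square difference of centred log2 CPM over the 6 libraries, as a description. The smallest difference was between Slc16a6 and Ncald, which encodes the calcium sensor neurocalcin delta, at 0.03, where the values of Slc16a6 itself deviated by 0.40. Ncald had 14.3, 10.2 and 7.20 CPM in Pak4_KO replicates 1 to 3, against 16.2, 14.7 and 12.2 CPM in WT replicates 1 to 3. Next for Slc16a6 was Mup17, a major urinary protein gene whose family is nearly identical in sequence, at 0.063. Bdh1 was closest to Slc35b2 (0.073) and Foxn3 (0.096), Acat1 to Ppp1r7 (0.046) and Zfp626 (0.054), Slc16a1 to Spryd7 (0.065) and Polr1b (0.075), and Oxct1 to Kmt2a (0.044) and Clec12a (0.052). For Slc16a7 the differences were larger in size, with Grasp at 0.12 and Ptov1 at 0.14. Its own values also deviated more, by 0.48, against 0.17 for Oxct1 and 0.23 for Acat1, so these differences do not set its profile apart. None of these 12 genes passed the test between the groups, with edgeR adjusted p-values from 0.617 to 0.996, against 0.469% of all tested genes called. They were picked for profiles like those of genes that were not called, so their lack of calls is no separate result.

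Among other genes of ketone handling no call was made. Of 11 listed genes 6 were tested, 0 were called by edgeR, DESeq2 or limma-voom, and 1 had an unadjusted edgeR p under 0.05, which is 16.7% against 8.21% of all tested genes. Their log2 fold changes were positive for 3 and negative for 3, with a median of -0.03, and the 3 negative ones are Acat2, Acat3 and Bdh2, described above. Aacs, which encodes the cytosolic acetoacetyl-CoA synthetase, stood at 46.0 ± 8.23 CPM in Pak4_KO and 44.9 ± 6.93 CPM in WT (SD, n = 3 each, edgeR adjusted p = 0.993). The testis transferases Oxct2a and Oxct2b and the sodium-coupled carriers Slc5a8 and Slc5a12 had at most 8 reads in any library and were not tested.

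Of 15 further monocarboxylate carriers and their partners, 12 were tested and 0 were called by edgeR, DESeq2 or limma-voom, while 4 had an unadjusted edgeR p under 0.05, 3 higher and 1 lower in Pak4_KO, which is 33.3% against 8.21% of all tested genes. The median log2 fold change was -0.03, with 5 positive and 7 negative. Slc16a3, which encodes the lactate exporter MCT4, had 0.779, 0.889 and 0.420 CPM in Pak4_KO replicates 1 to 3, against 2.80, 2.25 and 0.755 CPM in WT replicates 1 to 3, -1.47 on the log2 scale for Pak4_KO over WT (SE 0.51, adjusted p = 0.466 by edgeR). Slc16a5 had 12.2, 34.8 and 53.7 CPM in Pak4_KO replicates 1 to 3, against 3.56, 20.2 and 5.35 CPM in WT replicates 1 to 3, 1.79 on the log2 scale for Pak4_KO over WT (SE 0.70, adjusted p = 0.538 by edgeR). Both genes overlapped between the groups. Slc16a10, a carrier of aromatic amino acids named after its values were seen, had 82.1, 84.9 and 89.8 TPM in Pak4_KO replicates 1 to 3, against 69.3, 58.5 and 71.5 TPM in WT replicates 1 to 3. Per length it exceeded Slc16a1 in Pak4_KO replicates 1 and 3 and in WT replicate 2, and its groups did not overlap (edgeR adjusted p = 0.597). Emb, named after its values were seen, encodes embigin, a chaperone of MCT2, and had 1.84, 2.46 and 2.22 CPM in Pak4_KO replicates 1 to 3, against 6.08, 6.17 and 1.43 CPM in WT replicates 1 to 3. Its log2 fold change was -1.06 (SE 0.48, edgeR adjusted p = 0.634), and without WT replicate 3, the lowest of the 6 libraries, the log2 fold change was -1.49 with an edgeR adjusted p of 0.0456.

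The ketogenesis control list held the 2 genes of the lists that edgeR called, Acot1 and Vnn1. Neither is a regulator or an enzyme of ketone synthesis. The list has 23 genes of fatty acid entry, mitochondrial β-oxidation and PPARα response, with regulators of these, all tested. Of the 23, 2 rose and 0 fell by edgeR, where 0.265% of all tested genes rose and 0.204% fell. An unadjusted edgeR p under 0.05 was found for 10 of the 23, 9 higher and 1 lower in Pak4_KO, which is 43.5% against 8.21% of all tested genes. The log2 fold changes were positive for 19 and negative for 4, which is 82.6% positive against 50.7% of all tested genes, with a median of 0.29. Acot1, an acyl-CoA thioesterase, stood at 91.0 ± 36.5 CPM in Pak4_KO and 16.0 ± 5.89 CPM in WT (edgeR adjusted p = 0.0262), and Vnn1, a pantetheinase, at 51.0 ± 13.8 CPM in Pak4_KO and 15.0 ± 3.76 CPM in WT (SD, n = 3 each, edgeR adjusted p = 0.0244). DESeq2 called 3 of the 23, adding Cyp4a14, a fatty acid hydroxylase, against 2.06% of all genes it tested. The list was chosen with results of these samples known, so its count is no independent evidence of a direction. Leaving out 1 library ended the Acot1 call for Pak4_KO replicates 2 and 3 and WT replicates 1 and 2 (edgeR adjusted p up to 0.135), and the Vnn1 call for Pak4_KO replicates 1 and 3 and WT replicates 1 and 3 (edgeR adjusted p up to 0.0923). Chosen after their values were seen, Slc25a20, the carnitine-acylcarnitine carrier, differed by 0.43 on the log2 scale for Pak4_KO over WT (SE 0.14, adjusted p = 0.382 by edgeR) and Cpt1a, the gate of fatty acid entry into mitochondria, by 0.33 (SE 0.14, edgeR adjusted p = 0.596). Neither passed the test, and the groups did not overlap for either. Without overlap, 10 of the 23 were higher and 1 was lower in Pak4_KO, against 7.35% and 6.06% of all tested genes. The lower gene, Foxa2, also named after its values were seen, differed by -0.35 on the log2 scale (SE 0.14, edgeR adjusted p = 0.542).

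**Figure D4:**
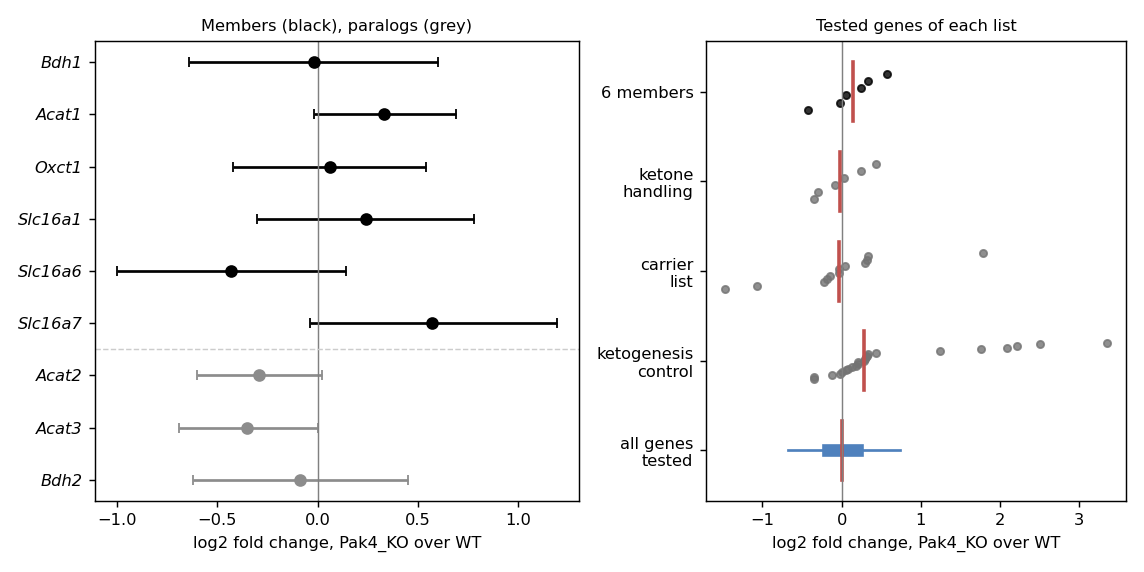
Log2 fold changes of Pak4_KO over WT, on the left for the 6 genes (black) and 3 paralogs (grey) with 95% intervals, and on the right for the tested genes of each list (points) and for all tested genes (thick bar, quartiles; thin line, 5th to 95th percentile), with medians in red. All 6 intervals on the left include 0, and the ketogenesis control list has a median of 0.29 against 0.00 for all tested genes.

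Hepatocyte markers summed to 62897 to 69567 CPM in Pak4_KO and 52373 to 67682 CPM in WT (6 of 8 negative). The largest part of that sum was Alb, at 35693 to 38497 CPM in Pak4_KO and 23248 to 34483 CPM in WT. Alb was thus higher in Pak4_KO without overlap, but did not pass the test (edgeR adjusted p = 0.783). Muscle markers, from a tissue rich in Oxct1, summed to 0 CPM in Pak4_KO and at most 0.210 CPM in WT, with Ckm and Acta1 at 0 reads in all libraries. The adipocyte markers Adipoq and Lep were at 0 reads too, and the list's sum of 34.3 to 211 CPM in Pak4_KO and 38.0 to 43.1 CPM in WT was nearly all Cidec. Neutrophil markers summed to 20.5 to 25.5 CPM in Pak4_KO and 31.7 to 56.2 CPM in WT (6 of 6 negative), and macrophage markers to 224 to 297 CPM in Pak4_KO and 300.1 to 392 CPM in WT (7 of 7 negative), groups that did not overlap. The other lists overlapped between the groups in their sums. Cholangiocyte markers summed to 54.4 to 83.8 CPM in Pak4_KO and 41.0 to 59.8 CPM in WT (6 of 7 positive), endothelial markers to 215 to 302 CPM in Pak4_KO and 205 to 260.2 CPM in WT (7 of 7 positive), and stellate markers to 185 to 354 CPM in Pak4_KO and 191 to 295 CPM in WT (6 of 7 positive). Erythroid markers summed to 182 to 286 CPM in Pak4_KO and 188 to 360.2 CPM in WT (3 of 4 tested negative). The lymphoid sum of 27.6 to 29.2 CPM in Pak4_KO and 27.9 to 50.7 CPM in WT (3 of 3 tested negative) was nearly all Ptprc, a gene of all leukocytes, at 26.6 to 28.4 CPM in Pak4_KO and 26.4 to 47.8 CPM in WT. Nkg7, a gene of cytotoxic lymphocytes too low to be tested, had at most 0.118 CPM in Pak4_KO and 0.147 to 1.09 CPM in WT. The lymphoid markers Ms4a1 and Cd79a, also too low to be tested, had the opposite sign. Ms4a1 averaged 0.183 CPM in Pak4_KO and 0.169 CPM in WT, and Cd79a 0.0551 CPM in Pak4_KO and 0 CPM in WT. Cd3e and Cd8a overlapped between the groups. Of 50 tested markers, edgeR and limma-voom called 0, against 0.469% and 0.42% of all tested genes. An unadjusted edgeR p under 0.05 was found for 15 of the 50, against 8.21% of all tested genes. By DESeq2, 7 of the 50 were called, against 2.06% of all genes it tested. DESeq2 called Pkhd1 (cholangiocyte), Vwf (endothelial) and Lrat (stellate) higher in Pak4_KO, and Foxa3 (hepatocyte), Mpeg1 (macrophage), S100a9 and Cxcr2 (both neutrophil) lower. The part of these markers in the values of the 6 genes was not tested.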

How the data were processed

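Whole-liver RNA was Trizol-extracted and made into libraries with a TruSeq Stranded mRNA kit, per the labels' protocols. Per the submitters' processing notes, the tools were StringTie 2.1.3b, HISAT2 2.1.0, FastQC 0.11.7, Bowtie2 2.3.4.1 and bcl2fastq 2.20.0, on build mm10. The order of the steps, the annotation release and the strand setting were not given in sources used here. Whole-number read counts per gene were deposited without normalization, per the file headers. FPKM (counts per length and library total) and TPM (shares scaled to a fixed total) were deposited by the authors in the same table, per the file headers. More genes had 2 reads than 1 read in every library, and both reads of a pair may have been counted.

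The counts of all 6 libraries entered 1 fit in edgeR 4.0.16 (R 4.3.3) with filterByExpr, TMM factors and the two-sided quasi-likelihood F-test, adjusted by Benjamini-Hochberg over 16197 genes. An SE is the size of the log2 fold change over the root of F, and 95% intervals use it with 8.39 degrees of freedom. The fit was tested on simulated data. DESeq2 1.42.0 and limma 3.58.1 served as alternatives, as did log2(TPM + 1) and log2(TPM + 0.1). TPM was used for comparisons between genes. Two-sided exact permutation tests of single ratios used scipy 1.17.1. Gene positions are 1-based from RefSeq GRCm38.p6, the mm10 assembly, and similar transcripts were sought with blastn 2.17.0 in GENCODE M21. Deviations of same-numbered libraries from their group means had correlations of 0.067, -0.201 and 0.147, which cannot settle whether the numbers pair the libraries. The main fit did not pair them, and replicate number as a block was an alternative.

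The 6 genes, the lists, the naming rule and the alternatives were chosen with earlier results of these data known. The rule named Pak4, the 6 genes, the paralogs Acat2, Acat3 and Bdh2, from each list the called members or the 2 with the smallest unadjusted p, and the 2 closest profiles of each gene. Some genes of the ketone handling list, among them 1 that the rule would name, are counted but not reported here. Aacs, Bsg, Amz2 and the single markers were named after their values were seen.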

Additional observations from a re-analysis of the deposited data

How the results depend on the processing

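None of the 6 genes was called under any of 18 alternatives, 17 planned and 1 added after seeing the data. Acat1, Slc16a1, Slc16a6 and Slc16a7 kept their direction in all 18. The Bdh1 log2 fold change turned to 0.02 with library-size scaling and to 0.06 with log2(TPM + 1) and with log2(TPM + 0.1), and ran from -0.32 to 0.27 when 1 library was left out. That of Acat1 ran from 0.21 to 0.48, Oxct1 from -0.10 to 0.17, Slc16a1 from 0.02 to 0.42, Slc16a6 from -0.74 to -0.22 and Slc16a7 from 0.32 to 0.86 when 1 library was left out. The log2 ratio of Bdh1 to Oxct1 then differed by -0.44 to 0.23, and the Slc16a1 share by -0.88 to 6.24 percentage points. Over all genes, 43 higher and 33 lower calls by edgeR compare with 175 and 159 by DESeq2, and with 16 higher calls when at least 10 reads were required in every library. Leaving out 1 library gave 22 to 34 higher and 13 to 47 lower calls, 0 to 1 in the carrier list and 0 to 2 in the ketogenesis control list, which kept 1 call without both libraries that stood apart. With the replicate block, 39 genes were higher and 34 lower, and Slc16a6 had an unadjusted edgeR p of 0.03 and an adjusted p of 0.585. The block changed no call among the 6 genes. The sources used here do not say whether the library numbers pair the samples, and correlations among so few libraries cannot settle it. Pak4_KO replicate 3 and WT replicates 1 and 3 correlated best with their own number, and the other 3 libraries did not. The causes were not tested. With 3 libraries a group, the 95% intervals of the 6 genes reach from 0.499-fold (Slc16a6) to 2.28-fold (Slc16a7).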
